A study of Mus musculus with 15 samples.

Results

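Arg2, Prok2, Bmx, Thbs1, Trpm2, Acvrl1 and Map4k4 are 7 of the 14801 genes in an RNA sequencing table of mouse bone marrow cells. They were picked by symbol because their levels were higher in ProNeut than in PreNeut neutrophil progenitors, and because the series concerns a marrow neutrophil progenitor with tumour-promoting activity. All 7 were found in the table, and all 7 passed the filter on low values. The difference between ProNeut and PreNeut chose them, so it is given below as a description with no test.

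The table covers 5 populations sorted by flow cytometry from fresh marrow of healthy mice, with 3 libraries each and 15 in all. The labels name them ProNeut_Neutrophil and PreNeut_Neutrophil, shortened here to ProNeut and PreNeut, and Neutrophil, CD115plusGMP (granulocyte-monocyte progenitors positive for CD115, the receptor for colony-stimulating factor 1) and CMP (common myeloid progenitors). No treatment or genotype is stated; the labels give no strain, age or sort gate and do not tie a library to an animal. The p-values therefore measure only library-to-library spread, part or all of which can be technical.

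The genes belong to several branches of myeloid biology. Arg2 encodes the mitochondrial arginase, which splits arginine into ornithine and urea; loss of arginine in the surroundings is a known means by which tumour-associated myeloid cells restrain T cells. Prok2 encodes prokineticin 2 (also called Bv8), a secreted peptide that acts on blood vessels and is known in mice as a granulocyte factor for tumour vessel growth. Thbs1 encodes thrombospondin 1, a large matrix protein that restrains vessel growth, binds CD47 and CD36 and can activate latent TGF-beta. Acvrl1 encodes ALK1, a type I receptor for BMP9 and BMP10 best known from endothelium. Trpm2 encodes a calcium-permeable channel opened by ADP-ribose in cells under oxidative stress. Bmx encodes a tyrosine kinase of the TEC family, and Map4k4 a serine/threonine kinase of the STE20 family that acts upstream of JNK and in the Hippo pathway.

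Coordinates are those of the GRCm38 build in GENCODE M21. Arg2 (Entrez 11847) lies on the plus strand at chr12:79130777-79156301, Thbs1 (Entrez 21825) on the plus strand at chr2:118111876-118127133, Acvrl1 (Entrez 11482) on the plus strand at chr15:101128522-101145336 and Map4k4 (Entrez 26921) on the plus strand at chr1:39900913-40026310. Prok2 (Entrez 50501) lies on the minus strand at chr6:99711299-99726392, Bmx (Entrez 12169) on the minus strand at chrX:164192842-164258193 and Trpm2 (Entrez 28240) on the minus strand at chr10:77907722-77970563. The genes thus sit on 7 different chromosomes and are not neighbours. Exons of Arg2 share 285 bases with Vti1b, a protein-coding gene on the other strand, and 116 bases with the antisense gene Gm48780. Exons of Thbs1 share 208 bases with Gm29233 and those of Acvrl1 127 bases with Gm16031, both on the other strand. Bmx, Trpm2 and Map4k4 have no gene on the other strand, and Prok2 shares no exon base with its partner Gm26748.

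Promoters of the members are shown because genes that move together can differ widely in the DNA at their start. RefSeq promoter sequences (GRCm38.p6, from 250 bases before to 50 bases after the start, read 5′ to 3′ on the gene's strand) were matched for 3 of the 7 genes, with CpG dinucleotides in capitals. They span chr6:99726343-99726642 (Prok2), chrX:164258144-164258443 (Bmx) and chr10:77969823-77970122 (Trpm2), all on the minus strand.
Prok2: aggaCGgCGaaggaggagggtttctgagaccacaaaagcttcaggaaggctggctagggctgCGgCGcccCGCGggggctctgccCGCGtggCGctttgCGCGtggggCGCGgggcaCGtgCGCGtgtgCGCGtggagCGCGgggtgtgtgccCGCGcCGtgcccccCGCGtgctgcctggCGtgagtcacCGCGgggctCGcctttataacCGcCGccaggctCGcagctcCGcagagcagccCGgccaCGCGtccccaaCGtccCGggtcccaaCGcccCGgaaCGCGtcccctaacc
Bmx: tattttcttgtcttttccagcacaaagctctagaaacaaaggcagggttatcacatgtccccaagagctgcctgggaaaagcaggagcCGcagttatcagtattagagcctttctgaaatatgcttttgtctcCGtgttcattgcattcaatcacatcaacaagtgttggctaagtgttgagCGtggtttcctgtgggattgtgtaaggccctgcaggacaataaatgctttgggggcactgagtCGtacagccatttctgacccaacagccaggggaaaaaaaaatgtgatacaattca
Trpm2: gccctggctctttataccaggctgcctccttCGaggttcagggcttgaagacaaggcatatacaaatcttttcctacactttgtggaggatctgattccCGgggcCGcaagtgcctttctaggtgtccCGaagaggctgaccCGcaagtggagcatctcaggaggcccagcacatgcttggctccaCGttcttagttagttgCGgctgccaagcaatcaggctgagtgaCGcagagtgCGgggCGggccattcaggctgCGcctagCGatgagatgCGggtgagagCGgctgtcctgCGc
The Prok2 promoter holds 42 CpG and is 73.7% G or C. The Bmx promoter holds 4 CpG and is 44.7% G or C, and the Trpm2 promoter holds 15 CpG and is 58.3% G or C. Over all 32851 RefSeq promoters of this length the median is 7 CpG and 52.67% G or C, and the highest 5% start at 37 CpG. Prok2 therefore has a dense CpG promoter and Bmx a sparse one, although both genes stood higher in ProNeut. Letters of 3 motifs used by myeloid factors were searched on both strands: TTGCNNAA (C/EBP, in 10.8% of all promoters), AGGAAGT (PU.1 and other ETS factors, 9.35%) and TTCNNNGAA (STAT, 8.30%); no promoter of the 3 held any of these letters.

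The values are log2 CPM, CPM being the number of reads of a gene scaled to the size of its library, with a count of 0.5 added before the log. Whole reads per gene could be recovered from every value, and they are given beside the levels. The libraries form 2 sets that follow the groups. ProNeut and PreNeut libraries had 7493694 to 68171606 reads over the table, with PreNeut replicate 3 the deepest, and Neutrophil, CD115plusGMP and CMP libraries 810794 to 1444403. Of reads on the 13 mitochondrial protein genes, 0.154% to 0.230% in the ProNeut and PreNeut set and 69.1% to 93.3% in the other set belonged to ND6, whose strand differs from that of all the rest. Identifiers without a gene symbol took 0.102% to 0.146% of reads in the deeper set and 55.6% to 69.5% in the shallower. Values of the shallower set may thus count opposite-strand reads, and between the sets the set and the cell population cannot be told apart, so no test runs between them.

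All 7 genes were higher in each ProNeut library than in each PreNeut library, and the group means differed by 3.18 to 7.83 log2 units. Of all 14161 genes tested, 36% did not overlap between these groups, 17.8% in this direction, and 1.84% were called higher (limma; at least 1 log2 unit with a Benjamini-Hochberg adjusted p below 0.05). The rule fixed the direction and the lack of overlap for the 7 genes, so nothing is read from these shares. In bulk samples, fewer cells that carry a transcript and less transcript per cell cannot be told apart.

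**Figure D1:**
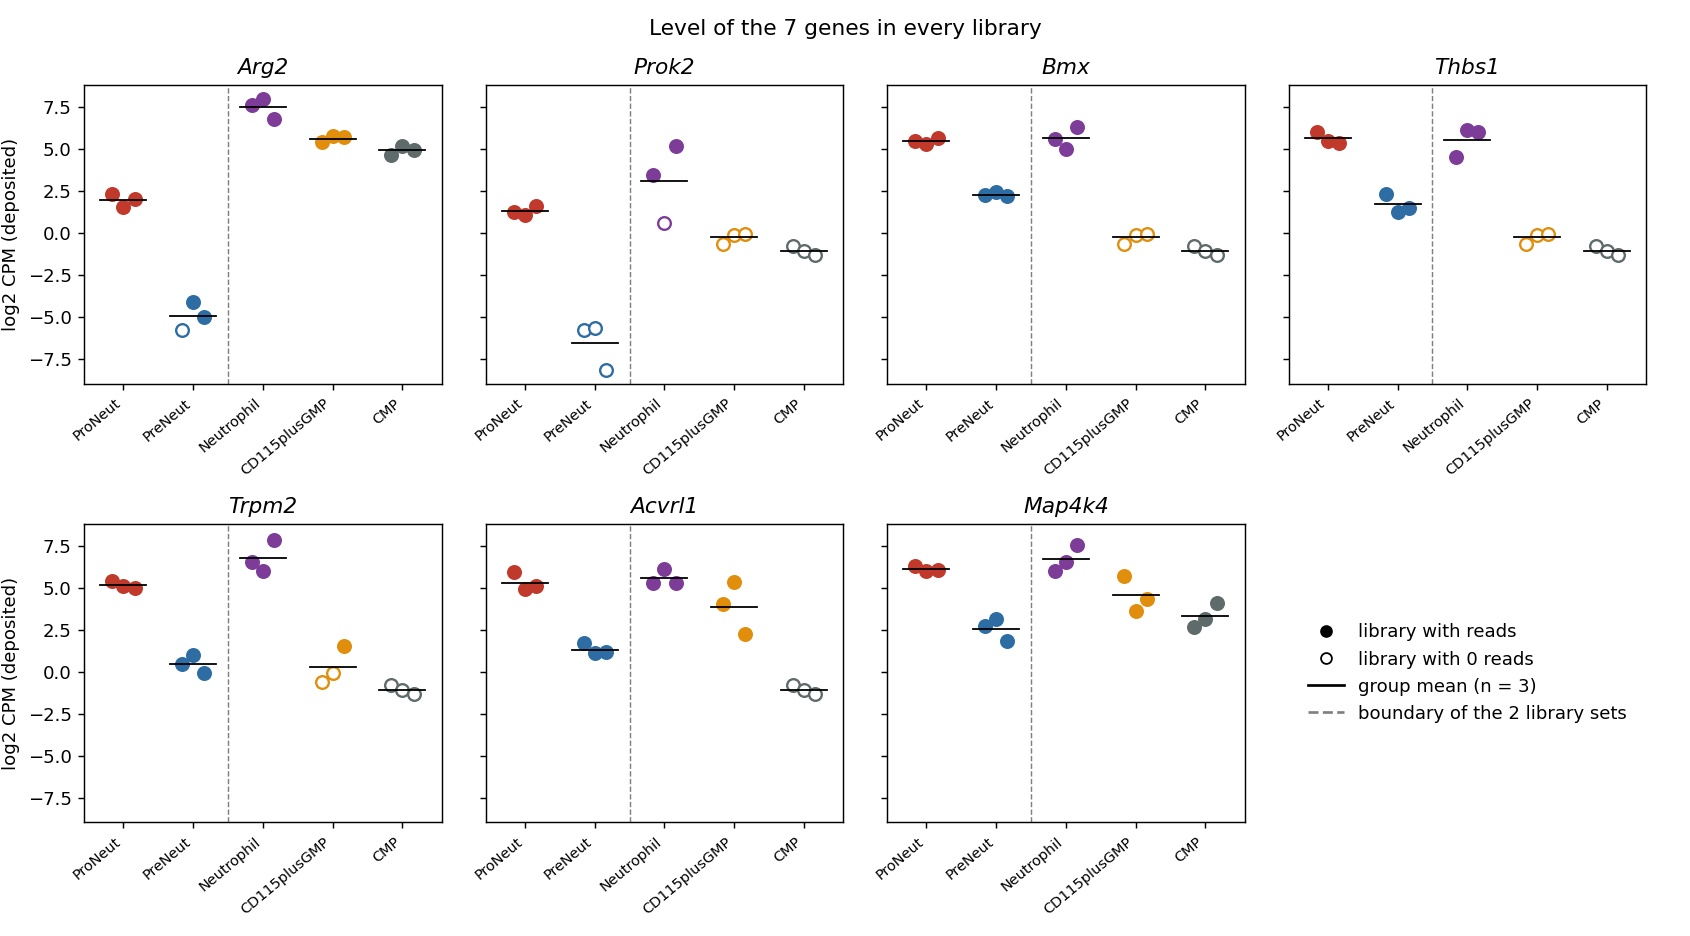
Level of each of the 7 genes in log2 CPM (vertical axis) in the 15 libraries, by group (horizontal axis: ProNeut and PreNeut, then Neutrophil, CD115plusGMP and CMP). Each point is a library, an open circle a library with 0 reads of the gene, and a bar the group mean; every ProNeut point lies above every PreNeut point of its gene.

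Among the secreted factors, Prok2 had no read in PreNeut. It had 35, 44 and 78 reads in the ProNeut libraries (log2 CPM 1.25, 1.09 and 1.60), and 0 reads in each PreNeut library, where a count of 0 stands at -5.76, -5.67 and -8.14. Over the group, 157 reads in ProNeut against 0 in PreNeut made it at least 164-fold higher, with a floor of 3 reads over the group. That bound rests mainly on PreNeut replicate 3; without it the bound is 44.5-fold. Prok2 was the lowest of the 7 genes in ProNeut per length, at a log2 CPM per kilobase of 0.37 ± 0.26 (SD, n = 3).

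Thbs1 was abundant in ProNeut and present in PreNeut. It had 966, 947 and 1058 reads in ProNeut (log2 CPM 6.02, 5.50 and 5.36) and 137, 61 and 395 reads in PreNeut (2.34, 1.28 and 1.49). The mean was 5.62 ± 0.35 in ProNeut and 1.70 ± 0.57 in PreNeut (SD, n = 3 each), a difference of 3.92 log2 units and a read ratio of 15.7 (95% counting interval 14.4 to 17.2). Intervals and floors here cover counting error only. Thrombospondin 1 is also a platelet protein, and the summed level of 10 megakaryocyte and platelet markers was 10.7 to 14.9 CPM in ProNeut and 4.16 to 19.3 CPM in PreNeut, ranges that overlap. Of the 10, 8 had the higher mean in ProNeut and 2 in PreNeut, none of the 9 tested was called, and their part in the Thbs1 difference was not tested.

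The arginase gene Arg2 was close to absent in PreNeut. It had 74, 62 and 105 reads in ProNeut (log2 CPM 2.32, 1.58 and 2.03) and 0, 1 and 4 reads in PreNeut (-5.76, -4.08 and -4.97). The 241 reads in ProNeut against 5 in PreNeut gave a ratio of 151 (63.9 to 470), and the log2 means of 1.97 ± 0.37 and -4.94 ± 0.84 differed by 6.91. Vti1b, a gene of vesicle fusion that shares 285 exon bases with Arg2, stood at 4.22 ± 0.12 in ProNeut and 4.25 ± 0.19 in PreNeut (limma difference -0.03 ± 0.51, SE; adjusted p = 0.9998).

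The receptor gene Acvrl1 had 898, 630 and 874 reads in ProNeut (log2 CPM 5.91, 4.91 and 5.08) and 87, 54 and 321 reads in PreNeut (1.69, 1.10 and 1.19). ProNeut replicate 1 was the highest, and the lowest ProNeut library was 3.22 log2 units above the highest PreNeut library. The means of 5.30 ± 0.54 in ProNeut and 1.33 ± 0.32 in PreNeut differed by 3.97, a read ratio of 16.3 (14.8 to 18.1). Acvrl1 and Bmx are both known from endothelium. The 6 endothelial markers in the table summed to 2.41 to 3.79 CPM in ProNeut and 2.10 to 5.42 CPM in PreNeut, and none of the 6 was at 0 reads over either group.

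The channel gene Trpm2 had 635, 724 and 830 reads in ProNeut (log2 CPM 5.41, 5.11 and 5.01) and 37, 51 and 133 reads in PreNeut (0.47, 1.02 and -0.08). The ProNeut libraries lay within 0.40 log2 units of each other and the lowest was 3.99 above the highest PreNeut library. The difference of the means, 5.18 ± 0.21 in ProNeut and 0.47 ± 0.55 in PreNeut, was 4.71 log2 units, a read ratio of 31.1 (27.0 to 35.8). It was the largest ratio among the 5 genes with more than 5 reads in PreNeut.

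The kinase gene Bmx had 661, 813 and 1282 reads in ProNeut (log2 CPM 5.47, 5.28 and 5.63) and 127, 136 and 643 reads in PreNeut (2.23, 2.43 and 2.19). Its group means of 5.46 ± 0.18 in ProNeut and 2.28 ± 0.13 in PreNeut differed by 3.18, the smallest difference of the 7, with a read ratio of 9.54 (8.85 to 10.3). Map4k4, the other kinase gene, had 1187, 1354 and 1729 reads in ProNeut (log2 CPM 6.31, 6.01 and 6.06) and 176, 223 and 495 reads in PreNeut (2.70, 3.14 and 1.81). Its means were 6.13 ± 0.16 in ProNeut and 2.55 ± 0.68 in PreNeut, a difference of 3.58. Its read ratio lay between 13.9 and 16.1 (95% counting interval), and was 9.10 without PreNeut replicate 3, the lowest PreNeut library for this gene.

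Divided by exon length (all annotated exons of a gene merged, which overstates the length of a gene with many isoforms), the order in ProNeut changed. Bmx had the highest log2 CPM per kilobase in ProNeut, 3.83 ± 0.18, followed by Acvrl1 at 3.21 ± 0.54, Thbs1 at 3.02 ± 0.35 and Map4k4 at 2.87 ± 0.16 (SD, n = 3 each). Libraries of neighbours in this order overlapped, while every Bmx library lay above every Thbs1 and Map4k4 library. Trpm2 at 1.54 ± 0.21 and Arg2 at 1.46 ± 0.37 formed a lower pair that also overlapped, and Prok2 lay below both. In PreNeut, Bmx was also the highest per kilobase, at 0.65 ± 0.13, and Arg2 and Prok2 were the lowest, at means of -5.45 and -7.46.

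**Figure D2:**
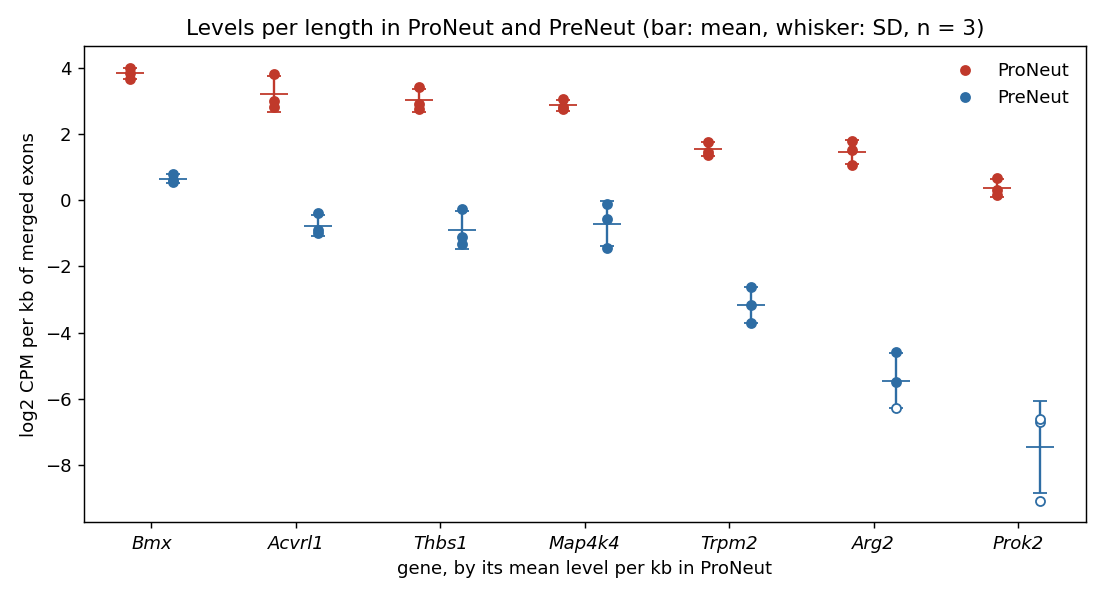
Level per length of the 7 genes (log2 CPM per kilobase of merged exon) in ProNeut and PreNeut libraries. Points are libraries, bars the mean and whiskers the SD (n = 3); Bmx, Acvrl1, Thbs1 and Map4k4 overlap as neighbours in ProNeut, with Trpm2 and Arg2 below them and Prok2 lowest.

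The genes with the most similar pattern were sought over the 6 ProNeut and PreNeut libraries, by the root mean square difference of log2 CPM after each gene's own mean was taken off, among 6148 genes with a mean log2 CPM of at least 3 in ProNeut. This likeness uses the contrast that chose the members and is a description. Nearest to Thbs1 was Acvrl1 itself at 0.20 log2 units, and the next for both was Mmp9, the gelatinase B gene, at 0.37 from Thbs1 and 0.29 from Acvrl1. Nearest to Trpm2 was Bst1, which encodes CD157, an ADP-ribosyl cyclase family enzyme, at 0.24, with Mmp9 next at 0.35. Nearest to Bmx were Trim30b (0.11) and Rin2 (0.16), and nearest to Map4k4 Adam19 (0.22), a metalloprotease gene, and Trim30b (0.36). Arg2 and Prok2 had no close companion: Mmp8, the neutrophil collagenase gene, was nearest at 0.70 and 0.94, and Ankrd33b (1.04) and Dmwd (1.50) came next. In the PreNeut libraries Prok2 had 0 reads each and Arg2 had 0, 1 and 4, so distances from these genes depend on the added count and the library depth. Among the members, Thbs1 and Acvrl1 were the closest pair, and Prok2 and Bmx the farthest at 2.45, with the same limit.

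Among the other populations, all 7 genes rose in Neutrophil against CMP, a comparison the rule did not use (limma, adjusted p from 7.1e-09 to 0.0017). Of all genes tested, 43.9% were called between these groups and 26.8% were called higher, so a call here is common. The genes tested include some with 0 reads in both groups. From the added count alone these stand at a mean log2 CPM of 0.31 in Neutrophil and -1.06 in CMP. Markers of other cell types also differed between these groups: monocyte and macrophage markers summed to 39.8 to 151 CPM in Neutrophil and 20.8 to 28.9 CPM in CMP, and B cell markers (4 of 8 in the table) to 43.3 to 88.8 CPM in Neutrophil and 0.947 to 6.44 CPM in CMP. Marrow stroma markers (3 of 10) summed to 133 to 244 CPM in Neutrophil and 39.8 to 60.3 CPM in CMP, and erythroid markers to 0 to 9.61 CPM in Neutrophil and 528 to 679 CPM in CMP. The part of these in the result was not tested. Trpm2 had 29, 20 and 145 reads in Neutrophil and 0 in each CMP library; it was at least 161-fold higher, and at least 79.6-fold without Neutrophil replicate 3 (adjusted p = 3.3e-08). Bmx had 15, 10 and 49 reads in Neutrophil against 0 in CMP, at least 61.3-fold higher and at least 37.2-fold without CMP replicate 3 (adjusted p = 7.1e-09). Neutrophil replicate 3 was the highest library for both genes.

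Thbs1 had 7, 22 and 40 reads in Neutrophil and 0 in CMP, at least 57.1-fold higher and at least 34.7-fold without CMP replicate 3 (adjusted p = 3.7e-08). The 10 platelet markers summed to 248 to 435 CPM in Neutrophil and 28.4 to 44.2 CPM in CMP. Of these, Gp1ba, which encodes a platelet receptor subunit, had 385 reads in Neutrophil, while Pf4, Ppbp and Itga2b had 0; the part of this in the Thbs1 result was not tested. Acvrl1 had 12, 22 and 24 reads in Neutrophil and 0 in CMP, at least 48.0-fold higher and at least 29.2-fold without CMP replicate 3 (adjusted p = 3.4e-07). The 6 endothelial markers summed to 17.6 to 36.8 CPM in Neutrophil and to 126 to 158 CPM in CMP. The CMP sum was mostly Eng, with 417 reads, and none of the other markers had more than 9. In Neutrophil, Eng had 0 reads and Stab2 the most, 15. The part of these markers in the Acvrl1 result was not tested.

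Map4k4 and Arg2 had reads in CMP as well, in the set whose values may count opposite-strand reads. Map4k4 had 20, 30 and 117 reads in Neutrophil against 5, 9 and 21 in CMP, and log2 means of 6.70 ± 0.79 and 3.32 ± 0.73 (difference 3.38 ± 0.57, SE; adjusted p = 0.00014). Its read ratio of 11.9 (8.19 to 17.6) was 6.96 without Neutrophil replicate 3 and 18.0 without CMP replicate 3. Arg2 had 64, 83 and 67 reads in Neutrophil against 21, 37 and 38 in CMP, with a difference of 2.55 ± 0.51 (adjusted p = 0.00061). Prok2 was the least certain of the 7 in Neutrophil, with 3, 0 and 22 reads against 0 in CMP. It was at least 20.7-fold higher (adjusted p = 0.0017), but 22 of its 25 reads came from Neutrophil replicate 3, and the 3 reads left without that library do not pass the floor (limma difference then 3.09; adjusted p = 0.012).

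Against CD115plusGMP, 6 of the 7 genes rose in Neutrophil, where 20.2% of all genes were called higher and 33.4% in either direction. Bmx (74 reads against 0; at least 35.3-fold; adjusted p = 7.1e-08) and Thbs1 (69 against 0; at least 33.0-fold; adjusted p = 3.5e-07) had no read in CD115plusGMP. Without CD115plusGMP replicate 1 the bounds were 20.5-fold for Bmx and 19.1-fold for Thbs1. Trpm2 had 194 reads in Neutrophil and 1 in CD115plusGMP, a ratio of 278 (49.3 to 11034; adjusted p = 5.7e-07); without CD115plusGMP replicate 3, which holds that read, it was at least 66.0-fold higher.

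Acvrl1 was close to the threshold against CD115plusGMP. It had 12, 22 and 24 reads in Neutrophil (log2 CPM 5.27, 6.11 and 5.29) and 12, 21 and 2 reads in CD115plusGMP (4.02, 5.34 and 2.25). The difference of 1.69 ± 0.63 (SE, n = 3 each) did not pass (limma adjusted p = 0.0503), and the libraries overlapped; without CD115plusGMP replicate 2 it was 2.42 and passed (adjusted p = 0.0050). It also passed with a replicate block (0.0455), 4 times the added count (0.0227) and median centring (0.0154). Map4k4 differed by 2.16 ± 0.57 (adjusted p = 0.0071), with 167 reads in Neutrophil against 39, 6 and 10 in CD115plusGMP. Its read ratio of 4.35 was 8.66 without CD115plusGMP replicate 1 and 2.55 without Neutrophil replicate 3. Prok2, with its 25 reads in Neutrophil against 0, passed with all libraries (at least 11.9-fold higher; adjusted p = 0.00997) and did not pass without Neutrophil replicate 3 (adjusted p = 0.063).

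Arg2 differed by 1.85 ± 0.51 between Neutrophil and CD115plusGMP (adjusted p = 0.0088), with 32, 28 and 27 reads in CD115plusGMP. Vti1b, which overlaps Arg2 on the other strand, also rose in Neutrophil: it had 4645 reads and a log2 CPM of 11.87 ± 0.74 in Neutrophil, 36 reads and 4.03 ± 1.13 in CD115plusGMP and 38 reads and 3.47 ± 0.65 in CMP. The Vti1b differences were 7.83 ± 0.51 against CD115plusGMP (adjusted p = 1.4e-08) and 8.40 ± 0.51 against CMP (adjusted p = 2.2e-09). Reads of the 2 genes were not separated, so whether the Arg2 level of this set is Arg2 transcript was not tested. Nor was this tested for the other members, among them Thbs1 and Acvrl1, whose exons also share bases with genes on the other strand.

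**Figure D3:**
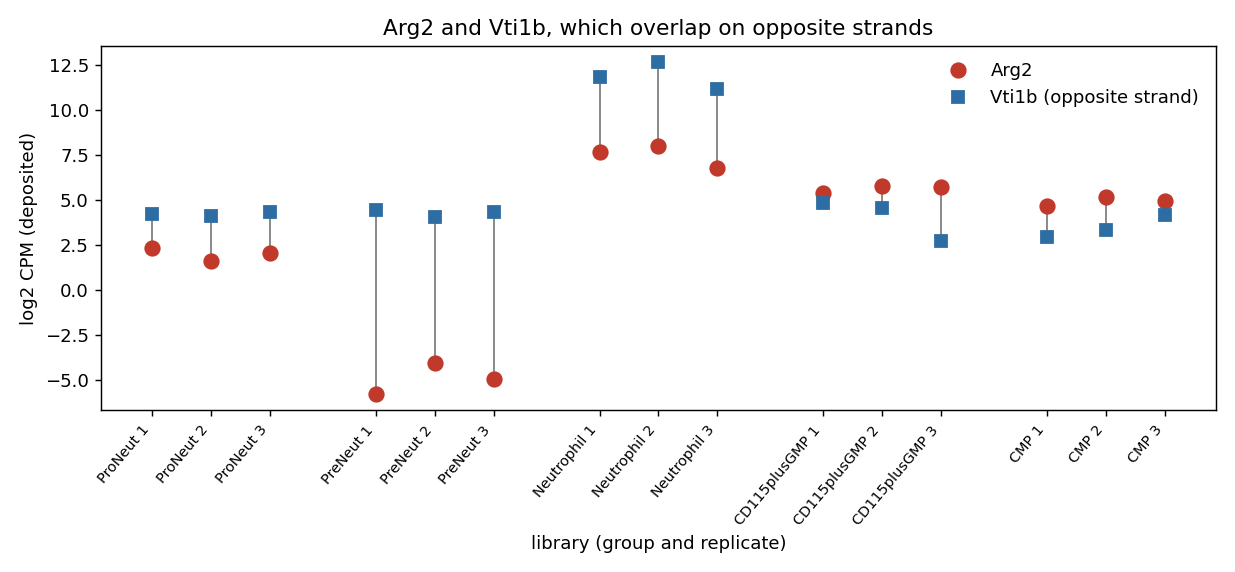
Log2 CPM (vertical axis) of Arg2 and of Vti1b, which overlaps it on the opposite strand, in each library of the 5 groups (horizontal axis). Arg2 lies higher in ProNeut than in PreNeut while Vti1b has like means there, and in Neutrophil both are at their highest, with Vti1b at a mean of 11.87.

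Between CD115plusGMP and CMP only Acvrl1 of the 7 was called, with 12.6% of all genes called and 8.08% called higher. Acvrl1 rose at least 20.2-fold in CD115plusGMP, where it had 35 reads against 0 in CMP (difference 4.93 ± 0.63, SE; adjusted p = 5.99e-05), and at least 11.4-fold without CD115plusGMP replicate 2. Arg2 (0.71 ± 0.51; adjusted p = 0.41) and Map4k4 (read ratio 2.72, 1.75 to 4.29; adjusted p = 0.19) did not pass. Prok2, Bmx and Thbs1 had 0 reads in both progenitor groups and Trpm2 1 read in CD115plusGMP, at or under the floor of 3 reads, so no fold is given. At this depth a low level of these 4 genes was not detectable.

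Scaling bears on these comparisons. The median difference of all genes was 0.60 for Neutrophil against CMP, 0.32 for Neutrophil against CD115plusGMP and 0.26 for CD115plusGMP against CMP. Under quantile normalization, median centring and plain read totals the first of these was -0.03, 1.60 and -0.77, the next 0.06, 0.97 and -0.49, and the last -0.07, 0.61 and -0.30. The split of calls in Neutrophil against CMP was 3792 higher and 2420 lower, and 3293 and 3636, 5534 and 1116, and 1923 and 4652 under those scalings. Against CD115plusGMP it was 2861 higher and 1865 lower, and 2203 and 2704, 3758 and 1024, and 1799 and 3121. For CD115plusGMP against CMP it was 1144 higher and 646 lower, and 1421 and 1268, 1291 and 302, and 696 and 1383. All 7 genes stayed higher in Neutrophil under each of these scalings, though with plain read totals Arg2 (1.19, adjusted p = 0.053, against CMP) and Arg2, Prok2 and Map4k4 (adjusted p = 0.11, 0.069 and 0.107, against CD115plusGMP) did not pass. Nor did Arg2 and Map4k4 against CD115plusGMP with quantile normalization (adjusted p = 0.206 and 0.157).

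The rank of a gene within its own library needs no scaling between libraries, but it depends on depth. Genes with 0 reads numbered 7227 to 8266 in the Neutrophil libraries and 1681 to 1902 in the ProNeut libraries. Thus 3 reads of Prok2 ranked at 65.4 in Neutrophil replicate 1, and 44 reads at 41.4 in ProNeut replicate 2. Ranks are therefore not on the same scale in the 2 sets. By this measure, the mean percentile of Map4k4 among all genes was 91.6 in ProNeut, 52.7 in PreNeut, 89.9 in Neutrophil, 83.0 in CD115plusGMP and 71.0 in CMP. Bmx stood at 85.7 in ProNeut, between 49.0 and 51.6 in the PreNeut libraries and at 83.5 in Neutrophil. Thbs1 stood at 87.1, 45.6 and 82.6, and Acvrl1 at 83.7, 42.7 and 82.9 in the same groups. Trpm2 stood at 82.7 in ProNeut, 37.3 in PreNeut and 90.2 in Neutrophil. For these 5 genes the PreNeut means thus lay between 37.3 and 52.7, and those of ProNeut and Neutrophil between 82.6 and 91.6.

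Arg2 had another order. Its mean percentile was 48.0 in ProNeut, 13.5 in PreNeut, 92.8 in Neutrophil, 89.8 in CD115plusGMP and 87.2 in CMP. ProNeut thus lay below all 3 groups of the shallower set, though ranks of the 2 sets are not on the same scale. Prok2 stood at 43.1 in ProNeut, 6.88 in PreNeut and 57.1 in Neutrophil, where its libraries ranged between 26.8 and 79.0. In log2 CPM, Neutrophil had the highest mean for every gene but Thbs1. The ProNeut mean of Thbs1, 5.62, was next to 5.55 ± 0.88 in Neutrophil. ProNeut and Neutrophil belong to different sets of libraries, so set and cell population cannot be told apart in these levels, and they were not tested. ProNeut and Neutrophil libraries overlapped in log2 CPM for Prok2, Bmx, Thbs1, Acvrl1 and Map4k4. They did not for Trpm2, at 5.18 ± 0.21 in ProNeut and 6.78 ± 0.97 in Neutrophil, nor for Arg2, at 1.97 and 7.47 ± 0.64.

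**Figure D4:**
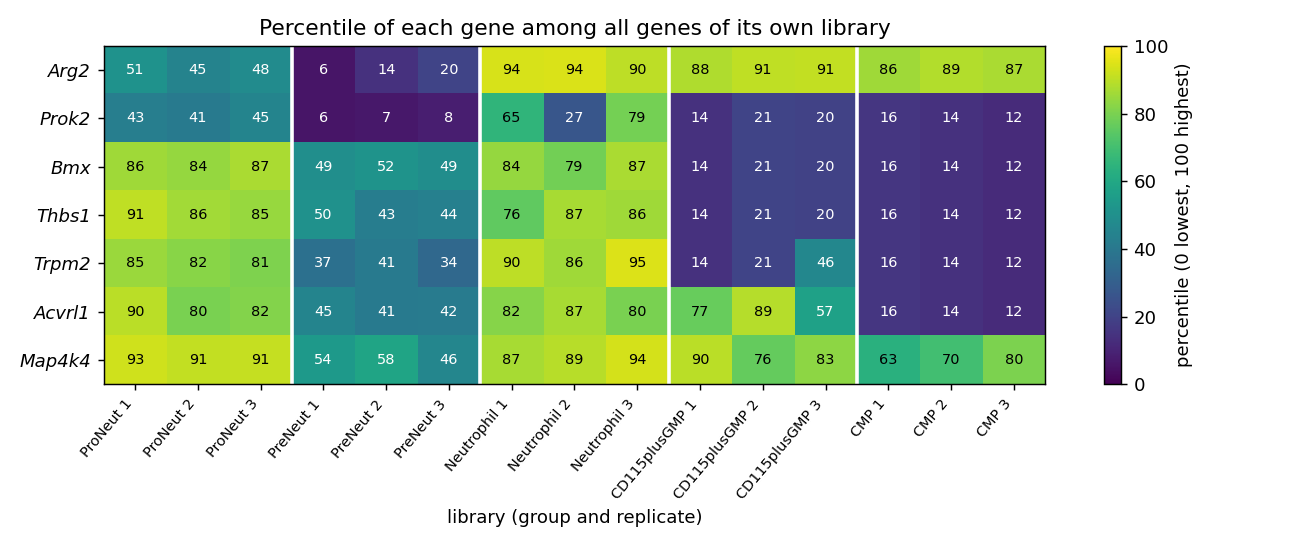
Percentile of each of the 7 genes (rows) among all genes of its own library, with a column per library, ordered by group. Colour and printed number give the percentile (0 lowest, 100 highest). Genes with 0 reads share the low ranks of their library. The percentile is higher in ProNeut than in PreNeut for all 7 genes, and that of Arg2 is higher in Neutrophil, CD115plusGMP and CMP than in ProNeut.

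In 8 lists of relatives, partners and related factors, 151 of 189 listed genes were tested. Of these, 5 were called higher in ProNeut and none lower (3.31%), and 19 were at an unadjusted limma p under 0.05. Of the 151, 57 lay higher and 21 lower in ProNeut without overlap. Over all genes tested, 2525 lay higher (17.8%) and 2572 lower. The lists were chosen with earlier results of these data known, so nothing is read from the shares in them. The number called was 14 with a fit of only these groups, 20 with voom weights, 11 with 4 times the added count and 3 with median centring. The main fit shares the spread of a gene over all 15 libraries, those of the shallower set included. A gene that did not pass is therefore not shown to be equal in ProNeut and PreNeut. Over all 14161 genes, 2.26% were called (1.84% higher, 0.417% lower); the median difference was 0.21 in the lists and 0.07 over all genes. The split over all genes was 261 higher and 59 lower, and 79 and 47 under quantile normalization. With a fit of only these groups it was 515 higher and 388 lower, so the share of lower calls depends on the fit.

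Of 23 tumour-associated myeloid factor genes tested, 4 rose in ProNeut (median difference 0.75). Mmp9 rose most firmly, at 9.73 ± 0.29 in ProNeut and 5.34 ± 0.14 in PreNeut (4.39 ± 0.40, SE; limma adjusted p = 3e-05). Il1rn, the interleukin 1 receptor antagonist gene, was at 5.43 ± 0.16 in ProNeut and 3.28 ± 0.30 in PreNeut (2.15 ± 0.44; adjusted p = 0.014), and Il1b, which encodes interleukin 1 beta, at 1.53 ± 0.32 and -1.23 ± 0.73 (2.76 ± 0.60; adjusted p = 0.020). Il1rn did not pass without ProNeut replicate 1, 2 or 3 or PreNeut replicate 3 (adjusted p = 0.0729, 0.0502, 0.0559 and 0.0728), and Il1b did not without ProNeut replicate 1, 2 or 3 or PreNeut replicate 1 (0.0759, 0.0559, 0.0894 and 0.0809). Ptgs2, the cyclooxygenase 2 gene, rose at least 15.7-fold, with 15 reads in ProNeut against 0 in PreNeut (adjusted p = 0.0074), and at least 4.25-fold without PreNeut replicate 3. Tgfb1 stood at 5.85 ± 0.06 in ProNeut and 6.29 ± 0.13 in PreNeut and did not pass.

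Beside Arg2, none of the 21 other genes of arginine and polyamine metabolism was called, with 6 at an unadjusted p under 0.05 and a median difference of 0.44. Arg1, the cytosolic arginase best known from macrophages, had 7 reads in ProNeut and 0 in PreNeut and did not pass (adjusted p = 0.16). Slc7a2, a transporter of arginine, had 13 reads in ProNeut against 3 in PreNeut (ratio 13.6, 3.73 to 74.4; adjusted p = 0.085). Odc1, which turns ornithine into putrescine, was at 2.92 ± 0.14 in ProNeut and 2.30 ± 0.31 in PreNeut. Arginase transcripts in ProNeut were thus mostly of Arg2, with 241 reads of Arg2 against 7 of Arg1, a gene with longer exons.

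Around Prok2, 12 angiogenic and prokineticin genes were tested and Mmp9 alone was called. Csf3r, the receptor gene of G-CSF, the cytokine that induces Prok2 in mouse myeloid cells, stood at 7.99 ± 0.19 in ProNeut and 7.40 ± 0.04 in PreNeut and did not pass. Around Thbs1, none of 17 genes was called (none at an unadjusted p under 0.05; median -0.05), and its receptor gene Cd47 stood at 6.79 ± 0.06 in ProNeut and 6.85 ± 0.06 in PreNeut. The other thrombospondin receptor gene, Cd36, had 24 reads in ProNeut and 155 in PreNeut and did not pass. Around Trpm2, 1 of 15 genes was called, Bst1, at 3.63 ± 0.25 in ProNeut and -0.95 ± 0.66 in PreNeut (4.58 ± 0.50; adjusted p = 0.0001). Trpm7, the related channel gene, stood at 5.82 ± 0.02 in ProNeut and 6.23 ± 0.09 in PreNeut and did not pass. Parp1, whose product makes poly(ADP-ribose), stood at 1.99 ± 0.15 and 3.60 ± 0.06 without overlap. It did not pass either (limma difference -1.61 ± 0.41, SE, adjusted p = 0.054), with the SE taken from the spread shared over all 15 libraries.

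Around Acvrl1, none of 24 genes of TGF-beta and BMP signalling was called, with 1 at an unadjusted p under 0.05. Eng, the co-receptor of ALK1, was low, with 45 reads in ProNeut and 56 in PreNeut (-0.50 ± 0.43 and -2.16 ± 0.65; adjusted p = 0.11). The type II receptor gene Bmpr2 stood at 2.81 ± 0.43 in ProNeut and 1.94 ± 0.06 in PreNeut, and the target gene Id1 at 4.67 ± 0.30 and 4.59 ± 0.07. Around Bmx, none of 18 genes was called and none was at an unadjusted p under 0.05; the TEC family relatives Btk (5.77 ± 0.08 in ProNeut, 5.75 ± 0.11 in PreNeut) and Tec (2.80 ± 0.23 and 2.93 ± 0.11) were close between the groups. Around Map4k4, none of 29 genes was called and none was at an unadjusted p under 0.05; its relatives Mink1 and Map4k1 stood at 1.20 ± 0.54 and 4.48 ± 0.03 in ProNeut and at 2.15 ± 0.43 and 4.72 ± 0.08 in PreNeut.

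**Figure D5:**
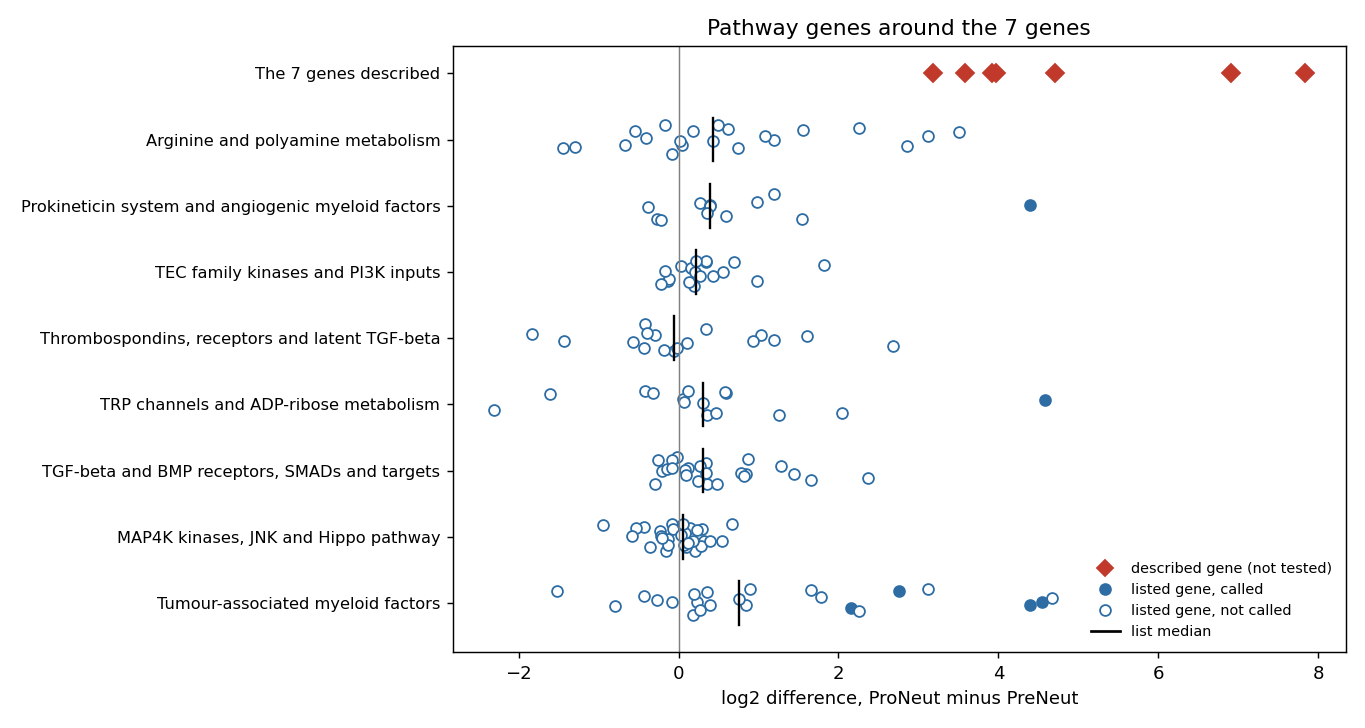
Difference in log2 CPM between ProNeut and PreNeut (ProNeut minus PreNeut) for the tested genes of the 8 lists around the 7 genes, a row per list. Diamonds in the top row are the 7 genes (not tested), filled circles listed genes that passed the test, open circles those that did not and upright bars list medians; 5 genes are called (Mmp9 stands in 2 lists), all of them higher in ProNeut.

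Markers of cell types that a sort can carry over were set beside these results. The 20 neutrophil lineage markers summed to 100900 to 125980 CPM in ProNeut, 80313 to 102750 CPM in PreNeut and 11470 to 39541 CPM in Neutrophil, against 420 to 923 CPM in CD115plusGMP and 40.4 to 48.3 CPM in CMP. These sums hide a split between ProNeut and PreNeut. Of the 20 markers, 3 were called higher in ProNeut (Mmp8, Mmp9 and Retnlg) and 5 lower (Elane, Mpo, Prtn3, Ctsg and Ms4a3). The limma difference was 4.82 for Retnlg and 4.39 for Mmp9, and -4.46 for Mpo and -3.48 for Ctsg. The part of this split in the result was not tested. The 16 monocyte and macrophage markers summed to 38.0 to 51.5 CPM in ProNeut and 64.9 to 68.7 CPM in PreNeut, with Vcam1 the highest of them and lower in all 3 ProNeut libraries than in all 3 PreNeut libraries. Of the 16, 8 had the higher mean in ProNeut, among them Irf8 and Cd68, and 8 in PreNeut; none of the 15 tested was called, and their part in the result was not tested. Erythroid markers (12 of 14 in the table) were at 80.8 to 87.7 CPM in ProNeut and 48.1 to 69.5 CPM in PreNeut and moved in the direction of the 7 genes, and their part in the result was not tested. Basophil and mast cell markers were at 2.28 to 2.51 CPM in ProNeut and 27.3 to 31.4 CPM in PreNeut. Mpo, the myeloperoxidase gene, which common myeloid progenitors are known to express, had 649 reads in CD115plusGMP and 13 in CMP.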

How the data were processed

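RNA of sorted marrow cells was sequenced from libraries that, per the labels, were made with a NuGEN kit for mRNA (Universal Plus). What the authors deposited is a table of 14801 genes in log2 CPM. The submitters' processing notes name edgeR 1.30.5, featureCounts 1.22.2, FastQC 0.11.7 and the GRCm38 (mm10) build. Aligner, strand setting and annotation: not given in the sources used here. After 2 was raised to each deposited value, division by a step fixed within the library and subtraction of 0.5 returned whole reads for 100% of values (tolerance 0.001 reads).

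The 14161 genes that exceed a log2 CPM of 0 in 3 or more of the 15 libraries were fitted. A count of 0 stands at 0.63 and 0.62 in Neutrophil replicates 1 and 2, so every gene exceeds 0 in these libraries. The filter therefore keeps genes with 0 reads in both groups of a comparison, and they enter the medians and shares over all genes. The fit used limma 3.58.1 in R 4.3.3, with trend, all groups sharing the spread. P-values were 2-sided and Benjamini-Hochberg adjusted over all genes tested; a call needs an adjusted p under 0.05 and 1 log2 unit. The fit was tested on simulated data. Ratios use recovered reads over library size, with exact intervals at 95%. No pair of libraries was a duplicate (chi-square per degree of freedom 2.10 to 24.4).

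The genes and lists were chosen with earlier results of these data known. Besides the 7 genes, the text names up to 4 genes per list with the largest difference (called ones first) and direct relatives of a member. It also names the 2 nearest in pattern and markers as checks. Gp1ba and the called neutrophil lineage markers were named after their values were seen. Alternatives were another added count, no filter, other scalings, voom weights, a replicate block, only the groups compared and each library left out.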

Additional observations from a re-analysis of the deposited data

How the results depend on the processing

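The 7 genes were higher in ProNeut than in PreNeut without overlap under all 14 alternatives. The size of the low genes followed the scale: Arg2 was at 5.80 and Prok2 at 5.88 with 4 times the added count, and at 3.52 and 3.73 with quantile normalization, which put Bmx at 3.49 and Map4k4 at 4.16. The number of genes called between ProNeut and PreNeut was 320 and became 607 (4 times the added count), 126 (quantile normalization), 186 (median centring), 903 (only these groups), 1363 (voom weights) and 195 to 405 (1 library left out; 198 and 195 without ProNeut replicates 1 and 2, 405 without PreNeut replicate 1). Pathway genes called, 5, became 11, 4, 3, 14 and 20 under the same settings and 3 to 6 with 1 library left out; Mmp9 and Bst1 passed in all 14. Il1rn and Il1b did not pass with median centring (adjusted p = 0.0616 and 0.0585), and Ptgs2 and Il1b with quantile normalization (0.81 and 0.74).

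All 7 genes were called in Neutrophil against CMP under 13 of 14 alternatives, and 6 with plain read totals. Against CD115plusGMP the 6 called became 3 with plain read totals and 5 to 7 with 1 library left out; Arg2 and Map4k4 did not pass with quantile normalization (adjusted p = 0.206 and 0.157), and Acvrl1 passed with 4 times the added count (0.0227) and median centring (0.0154). For CD115plusGMP against CMP, 1790 genes became 2689 with quantile normalization, and the 1 member called became 2 with median centring (Map4k4, adjusted p = 0.0494). The cause of these changes was not tested. Of 406 values of single genes, 376 counted as the same, 19 lost the call, 5 gained it, 6 moved and 0 reversed. For tested genes, the same means that direction and call were kept. The 406 include the 7 genes in ProNeut against PreNeut, which have no call and whose direction the rule fixed. For these, the same means a shift smaller than the SD within the groups, and moved a larger one.

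Same-numbered libraries did not deviate together (correlation of deviations 0.05 to 0.15 between ProNeut and PreNeut, -0.05 to 0.07 otherwise), so the numbers were not used as pairs. With a replicate block, 285 genes and 5 pathway genes were called in ProNeut against PreNeut, 7 members in Neutrophil against CMP and 7 against CD115plusGMP (Acvrl1, adjusted p = 0.0455), and 1 in CD115plusGMP against CMP. Prok2, Bmx, Thbs1 and Trpm2 had 0 or 1 read over each of CD115plusGMP and CMP, so lower levels could not be told from none at this depth.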
